A study of Rattus norvegicus with 9 samples.

Results

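The genes described here are 10 members of interleukin-6 family signalling and its STAT3 feedback in rat liver. They were chosen by symbol and are the ligands Il6, Osm and Lif, the receptor chains Il6r, Il6st, Osmr and Lifr, the transcription factor Stat3, and its induced genes Socs3 and Pim1. All 10 are among the 32883 genes of the deposited tables, and all 10 passed the filter on low counts, which left 14089 genes tested. Il6, Osm and Lif did so only through the ACLF livers, since no normal library held more than 7 counts of any of them.

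Bulk RNA-seq was performed on livers of male Sprague-Dawley rats, with 3 normal livers and 3 livers each from 2 groups with acute-on-chronic liver failure (ACLF). Both ACLF groups had their common bile duct ligated for 21 days, received lipopolysaccharide (LPS) from Escherichia coli O111:B4 at 0.25 mg/kg intraperitoneally, and were connected 1 h later to an extracorporeal blood circuit for 2 h at 1 ml/min, with heparin and under isoflurane. In the Empty group the circuit held neither cells nor a granulocyte and monocyte adsorption column. In the UTOpiA group it held that column of cellulose acetate beads in series with alginate-encapsulated human hepatocyte-like organoids made from genome-edited induced pluripotent stem cells. Livers of both ACLF groups came from rats alive 24 h after LPS. The rats were 8 to 11 weeks old when obtained. No sham surgery, circuit, heparin or anaesthesia is stated for the normal rats, so bile duct ligation, LPS, the circuit and its drugs cannot be told apart in any comparison with them.

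Each library held between 14241172 and 17321677 counted reads. Levels are given as TPM (a share of all transcripts, scaled to 1000000), which take account of gene length and so can be compared between genes. Fold changes come from edgeR's quasi-likelihood test on the counts after TMM scaling, and a gene was called where its fold change exceeded 2 and its p, adjusted by Benjamini-Hochberg over the 14089 genes, was under 0.05. The scales differ: comparing Empty with normal livers, the median gene stood 0.44 higher on the log2(TPM + 1) scale, against 0.05 after TMM scaling. Library Empty 2 stood apart from the other Empty libraries for these genes. It was the highest of the 9 libraries for 9 of the 10 members, where it was so for 17.55% of all genes tested, and results that rest on it are given with and without it. The liver markers were present in every library: the summed TPM of 8 hepatocyte markers ranged from 142700 to 154500 in normal livers, from 21260 to 47610 in the Empty group and from 22750 to 43840 in the UTOpiA group.

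Interleukin-6 family cytokines signal through Il6st, the gp130 chain that they share. Interleukin-6 first binds Il6r, which hepatocytes carry, while oncostatin M and leukaemia inhibitory factor assemble gp130 with Osmr or Lifr. The receptor-bound JAK kinases phosphorylate STAT3, which enters the nucleus and switches on the acute-phase genes of the hepatocyte together with Socs3, whose product binds gp130 and JAK and shuts the receptor down. Pim1, a serine/threonine kinase, is another gene that STAT3 induces.

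The 250 bases before the start of Il6 are shown because Il6 was at 0 in every normal liver and at 0.21 to 80.3 TPM in the ACLF livers. They lie at chr4:5894576-5894825 on the minus strand of GRCr8, in RefSeq's annotation, and the capitals mark, in order, a cAMP response element, a C/EBP match and an NF-kB match.

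Il6: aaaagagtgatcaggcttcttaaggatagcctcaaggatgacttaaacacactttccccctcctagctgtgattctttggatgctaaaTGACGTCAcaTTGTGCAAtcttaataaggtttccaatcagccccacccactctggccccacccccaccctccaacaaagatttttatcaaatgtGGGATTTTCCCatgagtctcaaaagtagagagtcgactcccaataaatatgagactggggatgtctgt

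These letters were searched on both strands in windows of 300 bases, 250 before and 50 after each start, which RefSeq's GRCr8 table gives for 8 of the 10 members; Osm and Lif were not among them. The response element TGACGTCA was in the Il6 window alone of these 8, and in 1.83% of all 33469 windows. The C/EBP motif TTGCNNAA was also in the Il6 window alone, against 10.6% of all windows. The NF-kB motif, GGGA and TCC with any 3 bases between them, was in the windows of Il6, Il6st and Pim1, against 4.09% of all windows. In Il6 it matched on both strands in runs that overlap, which is why the capitals there run 1 base past the motif. The AP-1 motif TGANTCA was in the Osmr window alone, against 7.33% of all windows.

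The STAT motif TTCNNNGAA was in 0 of the 8 member windows and in 8.87% of all windows. Bases outside these windows were not searched, so sites elsewhere in the genes are not covered. Among 22 genes listed as STAT3 targets, 16 had a window, and the motif was in those of 6, namely Bcl2l1, Fga, Fgb, Hamp, Icam1 and Serpina3n. A gene counted if any of its windows held the motif, whereas the 8.87% is a share of single windows. Bcl2l1 and Fga also had windows without it. The pieces below show the AP-1 match of Osmr, the NF-kB match of Pim1 and the STAT matches of Fga, which encodes the fibrinogen alpha chain, and of the adhesion molecule gene Icam1. In GRCr8 they lie at chr2:57688578-57688604 on the minus strand, chr20:7556486-7556515, chr2:170671919-170671945 and chr8:27829728-27829756, the last 3 on the plus strand, with the match in capitals. A match describes letters only, and none of these windows was measured here.
Osmr: gccccgcagcTGATTCAtagccggggc
Pim1: cctggaggtgGGGATGCTCCtgtccaagat
Fga: ggccccacTTCCTGGAAtgtagaatct
Icam1: ggcgcgaggtTTCCGGGAAagtggcccca

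The ACLF livers of the Empty group were compared with normal livers to ask how the pathway stood in the model with an empty circuit. The ligands Il6, Osm and Lif, the receptor chain Osmr, and Stat3, Socs3 and Pim1 were higher, while Il6r, Il6st and Lifr were not called. That is 7 of 10 members called higher and 0 lower, where 20.7% of all genes tested were called higher and 11.1% lower. Il6, Osm and Lif entered the test only through the livers where they were high, so their calls add nothing to that comparison. With at least 10 counts in every library, which leaves 7 members, 4 were called higher, against 14.5% of the 11342 genes then tested. Over the 7 members other than these ligands the median log2 fold change was 1.86, and 1.77 without Empty 2, against 0.05 over all genes tested. Without Empty 2, 7 of the 10 members were again called higher and 1 (Lifr) lower, against 20.4% and 12.3% of the genes then tested. In bulk tissue, more cells of a type and more RNA per cell cannot be told apart in any of these differences.

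**Figure D1:**
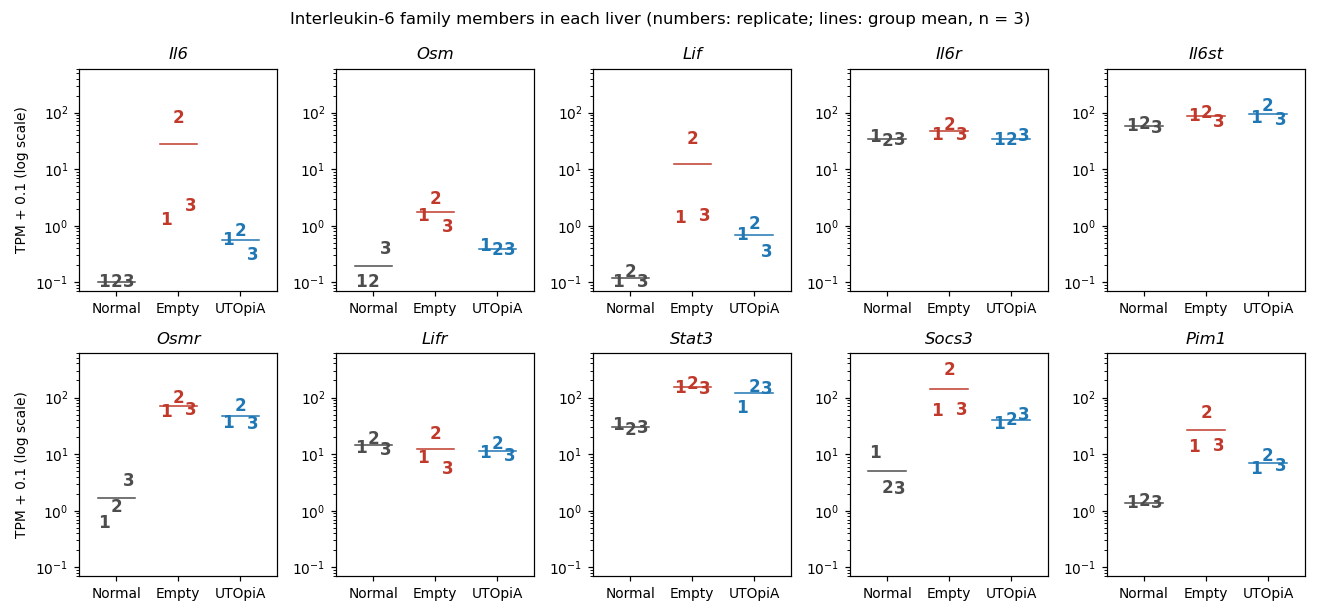
TPM of each member in each liver, plotted as TPM + 0.1 on a log axis, by group; the numbers are the replicates and the lines the group means (n = 3). Il6 lies at 0 in the 3 normal livers, at 80.3 in Empty 2 and at 0.73 or below in the UTOpiA livers, while Il6r keeps between 32.0 and 59.6 throughout.

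Il6 encodes interleukin-6, the main inducer of the acute-phase response. Its gene is annotated at chr4:3043231-3047807 of rn6, the build named in the submitters' processing notes. Its TPM was 0 in all 3 normal livers, 1.15, 80.3 and 2.14 in the Empty livers, and 0.46, 0.73 and 0.21 in the UTOpiA livers. No Empty liver overlapped a normal one, which held for 53.4% of all genes tested on the TPM scale, and 95.9% of the Empty counts of Il6, 773 of 806, came from Empty 2. A group at 0 gives a lower bound only: taking 3 counts in each normal library, Il6 was at least 57.4-fold higher in the Empty group, and at least 3.26-fold higher without Empty 2. The test called it higher (adjusted p = 0.0268, edgeR), and the call was lost when any 1 normal library was left out, with adjusted p from 0.0554 to 0.0587.

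Lif encodes leukaemia inhibitory factor. It lies 12264 bases from Osm on chromosome 14 of rn6. Its TPM was 0, 0.05 and 0 in normal livers, 1.26, 33.6 and 1.39 in the Empty livers, and 0.59, 0.97 and 0.24 in the UTOpiA livers. The normal livers held 1 count of Lif and the Empty livers 745, of which 92.3% were in Empty 2. The ratio per TMM-scaled depth was 457 (95% exact interval 81.7 to 18050, counting error only), and 51.2 (8.82 to 2056) without Empty 2. Lif was called higher (adjusted p = 0.00794, edgeR), also without Empty 2 (adjusted p = 0.00166), and it was not called by limma on log2(TPM + 1) with no filter (adjusted p = 0.0676).

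Osm encodes oncostatin M, a cytokine of activated myeloid cells. Its TPM was 0, 0 and 0.29 in normal livers, 1.38, 2.83 and 0.85 in the Empty livers, and 0.34, 0.27 and 0.27 in the UTOpiA livers. The Empty group averaged 1.69 ± 1.02 TPM (SD, n = 3), and Empty and normal livers did not overlap. Osm was the highest of the 3 ligands in Empty 1 and the lowest in Empty 2 and Empty 3. Its log2 fold change was 3.51 ± 0.99 (SE, adjusted p = 0.0156, edgeR), and 2.91 without Empty 2 (adjusted p = 0.0421). Lists of cell type markers also differed between Empty and normal livers, some higher, some lower and some mixed. Of 8 hepatocyte markers 5 were called lower in the Empty group than normal, and 6 without Empty 2, with the sums given above. The summed TPM of 8 neutrophil markers was 2.36 to 5.58 in normal livers, where Mpo, Cxcr2 and Elane were at 0, and 188 to 1108 in the Empty group. The 5 that were tested held 15 counts or fewer in each normal library and entered through the ACLF livers, so that all 5 were called higher follows from the filter. Of 8 macrophage markers 6 were called higher, with sums of 247 to 296 in normal livers and 529 to 872 in the Empty group. Called higher were also 5 of 5 cholangiocyte markers (sums 14.2 to 22.5 and 175 to 365), 6 of 7 stellate cell and fibroblast markers (105 to 116 and 855 to 1054), 5 of 6 T cell markers (2.14 to 2.70 and 11.6 to 17.7) and 4 of 4 red blood cell markers (105 to 307 and 2528 to 4043). Of these, Krt19, Krt7, Sox9, Cftr, Cd3d, Cd3e, Cd3g, Cd5 and Alas2 held 15 counts or fewer in each normal library. They too entered through the ACLF livers, so their calls add nothing to the comparison with all genes. Of 5 endothelial markers 1 was called higher and 1 lower, and of 2 B cell markers tested none was called. Over all genes 20.7% were called higher and 11.1% lower. Within the Empty group, Empty 2 was highest for 6 of 8 hepatocyte, 4 of 5 cholangiocyte, 5 of 5 endothelial and 3 of 4 red blood cell markers, where it was so for 36.28% of all genes, and lowest for 4 of 5 neutrophil markers, against 36.85%. Empty 2 was highest for 4 of 7 stellate cell and fibroblast, 1 of 8 macrophage and 1 of 6 T cell markers. For neutrophil and B cell markers it was highest for 0 of 5 and 0 of 2. The summed hepatocyte markers were 47610 TPM in Empty 2, against 21470 and 21260 in Empty 1 and Empty 3. Most of each sum was Alb, at 33610, 13850 and 12840 TPM in the same order, while Hnf4a and Apob were lowest in Empty 2. The part of these cells in the levels of the members was not tested.

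Among the receptor chains, Osmr was higher in ACLF and the chains that bind interleukin-6 were not. Osmr, the oncostatin M receptor chain, measured 0.52, 1.06 and 3.21 TPM in normal livers, 56.5, 99.5 and 60.0 in the Empty livers, and 35.0, 70.8 and 34.1 in the UTOpiA livers. The highest normal liver was thus far below the lowest ACLF liver. Its log2 fold change in the Empty group was 4.97 ± 0.61 (SE, adjusted p = 0.000395, edgeR), and 4.64 without Empty 2. Osmr was the member with the smallest adjusted p.

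Lifr, the chain for leukaemia inhibitory factor, is encoded 274835 bases from Osmr on chromosome 2 of rn6. Its TPM was 12.6, 18.2 and 11.7 in normal livers, 8.36, 22.7 and 5.39 in the Empty livers, and 10.2, 14.9 and 9.04 in the UTOpiA livers. Empty 1 and Empty 3 were below every normal liver, and Empty 2 was above them all. The log2 fold change was -0.72 ± 0.47 (SE, adjusted p = 0.229, edgeR) over all livers. Without Empty 2 it was -1.55, and Lifr was called lower (adjusted p = 0.00179).

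Il6r, the interleukin-6 binding chain, measured 37.2, 32.0 and 33.4 TPM in normal livers, 40.9, 59.6 and 40.8 in the Empty livers, and 32.9, 32.6 and 38.3 in the UTOpiA livers. Il6st, the shared gp130 chain, measured 58.8, 63.9 and 54.4 TPM in normal livers, 87.3, 99.9 and 69.3 in the Empty livers, and 81.3, 131 and 73.3 in the UTOpiA livers. On the TPM scale every Empty liver was above every normal liver for both, as for 53.4% of all genes. After TMM scaling the log2 fold changes were -0.05 ± 0.24 for Il6r (adjusted p = 0.869, edgeR) and 0.03 ± 0.20 for Il6st (adjusted p = 0.924). The direction for Il6r depends on the scale, since it was 0.43 on log2(TPM + 1), where the median of all genes was 0.44.

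The balance of Osmr to Lifr within each liver turned over. The ratio of their TPM was 0.041, 0.058 and 0.273 in normal livers, 6.76, 4.39 and 11.1 in the Empty livers, and 3.42, 4.77 and 3.77 in the UTOpiA livers. Lifr was the more abundant chain in each normal liver and Osmr in each ACLF liver. The mean log2 ratio exceeded that of normal livers by 6.32 in the Empty group and by 5.51 in the UTOpiA group. Both comparisons gave p = 0.1 in a two-sided exact permutation test, the smallest that 3 livers against 3 can give, and an adjusted p of 0.257 over 9 such comparisons of 3 ratios. Empty 2 had the lowest ratio of its group, and without it the difference from normal livers was 6.65.

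**Figure D2:**
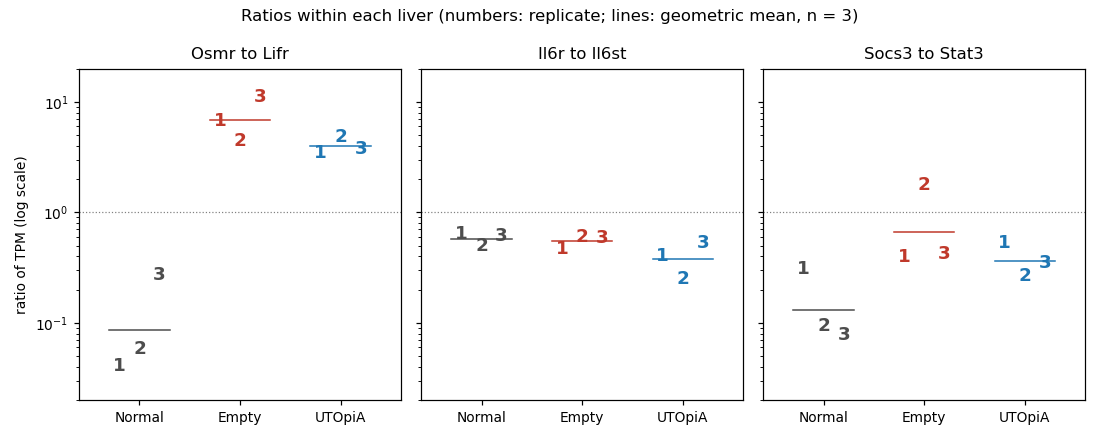
Ratio of TPM within each liver for 3 pairs of members, on a log axis with a dotted line at 1; numbers are replicates and lines geometric means (n = 3). The Osmr to Lifr ratio is at most 0.273 in normal livers and at least 3.42 in ACLF livers, while the Il6r to Il6st ratio overlaps between all groups.

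The Il6r to Il6st ratio was 0.633, 0.501 and 0.614 in normal livers, 0.469, 0.597 and 0.589 in the Empty livers, and 0.405, 0.249 and 0.523 in the UTOpiA livers. The groups overlapped, and the log2 ratio of the Empty group differed from that of normal livers by -0.08 (p = 0.5, exact permutation test). gp130 thus stood above its interleukin-6 partner in every liver.

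Stat3 was raised in every ACLF liver. Its TPM was 33.3, 26.2 and 29.3 in normal livers, 149, 171 and 142 in the Empty livers, and 64.3, 151 and 140 in the UTOpiA livers. The Empty livers lay close together, and UTOpiA 1 lay below every other ACLF liver. The log2 fold change in the Empty group was 1.86 ± 0.33 (SE, adjusted p = 0.00173, edgeR), and 1.77 without Empty 2.

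Socs3, the feedback inhibitor, is encoded at chr10:106975178-106976040 of rn6. Its TPM was 10.3, 2.45 and 2.29 in normal livers, 58.1, 305 and 60.0 in the Empty livers, and 33.9, 39.8 and 48.5 in the UTOpiA livers. Normal and ACLF livers did not overlap, and Empty 2 stood far above the other Empty livers. The log2 fold change in the Empty group was 4.31 ± 0.88 (SE, adjusted p = 0.00406, edgeR), and 3.04 without Empty 2 (adjusted p = 0.00401).

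The ratio of Socs3 to Stat3 TPM was 0.309, 0.093 and 0.078 in normal livers, 0.391, 1.78 and 0.422 in the Empty livers, and 0.528, 0.264 and 0.347 in the UTOpiA livers. The inhibitor exceeded the factor it restrains in Empty 2 alone. The log2 ratio of the Empty group exceeded that of normal livers by 2.34 (p = 0.1, exact permutation test, adjusted p = 0.257), and by 1.63 without Empty 2. It was 1.47 higher in the UTOpiA group, where normal 1 overlapped (p = 0.2, exact permutation test).

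Pim1, annotated at chr20:8165307-8169555 of rn6, measured 1.25, 1.36 and 1.25 TPM in normal livers, 13.4, 52.9 and 13.8 in the Empty livers, and 5.41, 9.10 and 6.01 in the UTOpiA livers. The 3 groups did not overlap, with normal lowest and Empty highest. The log2 fold change in the Empty group was 3.86 ± 0.60 (SE, adjusted p = 0.00102, edgeR), and 2.86 without Empty 2 (adjusted p = 0.000102).

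By level, Il6st was the highest member in normal livers at 59.0 ± 4.75 TPM (SD, n = 3). Il6r at 34.2 ± 2.70 and Stat3 at 29.6 ± 3.53 came next, and their ranges overlapped. In the Empty group Stat3 was the highest at 154 ± 15.4 TPM, followed by Socs3 at 141 ± 142, which Empty 2 set, and Il6st at 85.5 ± 15.4. In the UTOpiA group Stat3, at 118 ± 47.1, and Il6st, at 95.2 ± 31.2, overlapped. Osmr rose from the sixth place in normal livers to the fourth and the third in the Empty and UTOpiA groups.

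**Figure D3:**
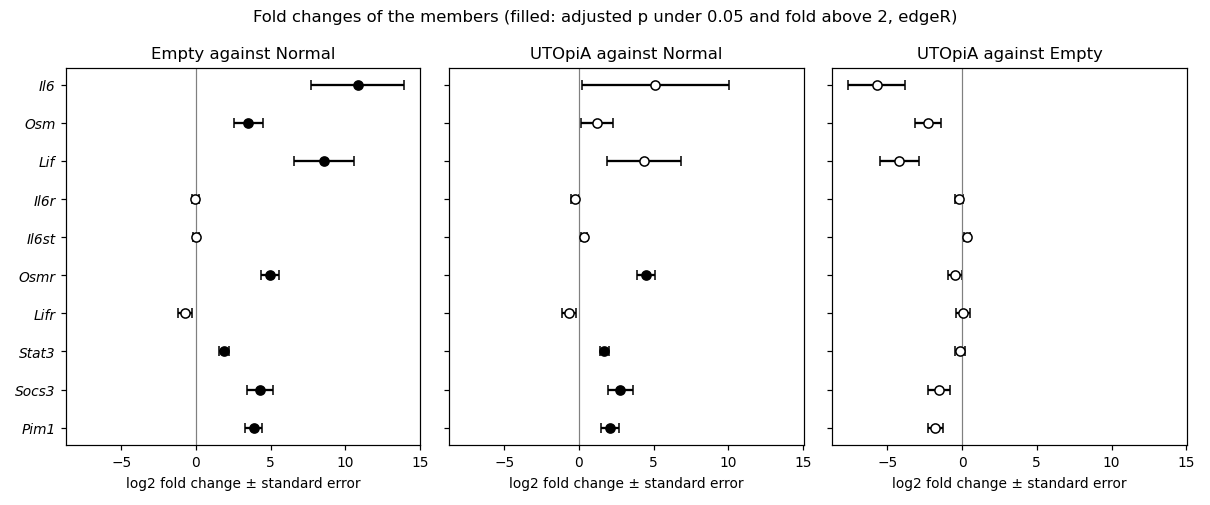
Log2 fold change of each member with its standard error (edgeR, 3 livers in each group) for 3 comparisons; filled points passed an adjusted p under 0.05 and a fold above 2. All points of the UTOpiA against Empty panel are open, and Il6 and Lif carry the widest errors.

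UTOpiA livers were compared with Empty livers to ask what the treatment changed. No member was called, with 0 higher and 0 lower of 10, and the background was the same, 0% of genes higher and 0% lower out of 14089, with a smallest adjusted p of 0.170 by edgeR. At an unadjusted p under 0.05 there were 4 members, all with lower values (Il6, Lif, Osm and Pim1), and 1456 genes in all. Il6, Osm and Lif entered the test only through the Empty livers, so their lower values here go with their selection, and 1 of the other 7 members (Pim1) was among the 4. Between the groups, 6 members (Il6, Il6r, Osm, Lif, Socs3 and Pim1) had all 3 UTOpiA livers below all 3 Empty livers in TPM, as did 8.62% of all genes tested. After TMM scaling that held for 4 of them, Il6, Osm, Lif and Pim1, against 5.97% of all genes, and Pim1 is the one of the 4 that the filter did not select for being high in the Empty livers.

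The fold changes of the ligands between the ACLF groups rested on Empty 2 in size. Il6 had a log2 fold change of -5.72 ± 1.88 (SE, adjusted p = 0.409, edgeR), and of -1.61 without Empty 2 (adjusted p = 0.349). Lif gave -4.19 ± 1.31 (adjusted p = 0.392), and -0.99 without Empty 2. Osm moved less with that library, at -2.29 ± 0.86 (adjusted p = 0.433) and -1.69 without it. For these ligands, the UTOpiA livers were also below Empty 1 and Empty 3.

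Pim1 had a log2 fold change of -1.79 ± 0.52 (adjusted p = 0.356, edgeR) in UTOpiA against Empty livers. DESeq2 called it lower, at -1.80 with an adjusted p of 0.0492, where 0.504% of all genes were called lower, and it was the only member so called. Without Empty 2, DESeq2 gave -0.82 with an adjusted p of 0.104. DESeq2 gave Il6 and Lif no adjusted p. Socs3 had -1.56 ± 0.75 (adjusted p = 0.518, edgeR), which was -0.28 without Empty 2.

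Stat3 and the receptor chains showed small differences between the ACLF groups. The log2 fold changes were -0.16 ± 0.32 for Stat3, -0.48 ± 0.50 for Osmr, 0.07 ± 0.47 for Lifr, -0.21 ± 0.24 for Il6r and 0.31 ± 0.20 for Il6st, with adjusted p from 0.626 to 0.975 (edgeR). These standard errors leave room for differences in either direction. The Osmr to Lifr ratio was 0.81 lower on the log2 scale in the UTOpiA group (p = 0.2, exact permutation test), the Il6r to Il6st ratio 0.55 lower (p = 0.2) and the Socs3 to Stat3 ratio 0.87 lower (p = 0.4), the last by 0.16 without Empty 2. Over the 7 members other than the ligands the median log2 fold change was -0.21, and -0.06 without Empty 2, against 0.001 over all genes. Red blood cell markers separated the same groups: the summed TPM of 4 of them was 2528 to 4043 in the Empty group and 836 to 1398 in the UTOpiA group, with 0 of 4 called. Their part in these differences was not tested.

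UTOpiA livers were then set against normal livers; this comparison shares its UTOpiA and normal livers with the 2 above. Osmr, Stat3, Socs3 and Pim1 were called higher and none lower, 4 of 10 members, where 18.2% of genes were called higher and 6.81% lower. Osmr had a log2 fold change of 4.49 ± 0.60 (SE, adjusted p = 0.000838, edgeR) and Stat3 of 1.71 ± 0.33 (adjusted p = 0.00364). Both calls held when any 1 of these livers was left out. Socs3 had 2.76 ± 0.84 (adjusted p = 0.0301) and Pim1 2.07 ± 0.59 (adjusted p = 0.0217). Socs3 lost its call without normal 2, normal 3, UTOpiA 2 or UTOpiA 3 (adjusted p from 0.0658 to 0.0975), and Pim1 without any 1 normal library or UTOpiA 2 (adjusted p from 0.0634 to 0.0656). Cell type markers differed here too. Of 8 hepatocyte markers 3 were called lower and 0 higher, and of 8 macrophage markers 4 higher and 0 lower. Of 7 stellate cell and fibroblast markers 6 were called higher, and of 5 endothelial markers 1 higher and 1 lower. Their part in the levels of the members was not tested.

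The ligands were near the limit of detection in UTOpiA livers. Il6 held 4, 7 and 2 counts there against 0 in each normal library, which is at least 1.02-fold higher with 3 counts per normal library. Lif held 36 counts against 1, a ratio of 26.7 (95% exact interval 4.50 to 1085), with an adjusted p of 0.192 by edgeR. Osm held 8, 7 and 7 counts, while normal 3 alone held 7 (adjusted p = 0.391, edgeR). Without normal 3, Osm was called higher (adjusted p = 0.0286). Over the other 7 members the median log2 fold change was 1.71, against 0.05 over all genes.

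The rest of the pathway was followed in a list of 28 other ligands, receptors, kinases, inhibitors and sheddases, of which 24 were tested. In the Empty group against normal livers 9 were called higher and 0 lower, against 20.7% and 11.1% of all genes, with a median log2 fold change of 0.49. Several of the 9, such as Ebi3, Socs1 and Il27ra, held 8 counts or fewer in each normal library. They entered through the ACLF livers, so their calls against normal livers add nothing to such counts. Without Empty 2, 9 were again called higher and 1 (Cish) lower, and Socs1 and Il27ra lost the call (adjusted p = 0.106 and 0.0677, edgeR). Among the largest were Ebi3, Clcf1, Socs1, Jak2 and Il27ra. None of the 24 was called in UTOpiA against Empty livers by edgeR or DESeq2. At an unadjusted p under 0.05 by edgeR there were 5, against 1456 of all 14089 genes. In UTOpiA against normal livers 7 were called higher and 0 lower, against 18.2% and 6.81% of all genes.

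Clcf1 encodes a cytokine that signals through gp130. Clcf1 was at 0.44, 0.63 and 1.03 TPM in normal livers, 6.93, 28.2 and 15.0 in the Empty livers and 6.70, 10.8 and 4.71 in the UTOpiA livers (log2 fold change in the Empty group 4.04, adjusted p = 0.000566, edgeR). Ebi3, a subunit of interleukin-27, had 0.10, 0.29 and 0.48 TPM in normal livers, 28.4, 5.59 and 20.1 in the Empty livers and 4.94, 21.3 and 1.80 in the UTOpiA livers (log2 fold change 5.37, adjusted p = 0.00346). Unlike the members, Ebi3 was lowest of the Empty group in Empty 2.

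Of the other named genes, Il27ra, the interleukin-27 receptor, stayed under 0.3 TPM in all livers, with a log2 fold change of 1.53 in the Empty group (adjusted p = 0.0363, edgeR). Il27ra held 3, 2 and 2 counts in the normal libraries and passed the filter only through the ACLF livers. Socs1, a feedback inhibitor of JAK kinases, was at 0.88, 0.21 and 0.10 TPM in normal livers, 0.97, 4.97 and 3.65 in the Empty livers and 1.26, 0.57 and 0.29 in the UTOpiA livers. It was called higher in the Empty group (log2 fold change 2.46, adjusted p = 0.0376). Jak2, a kinase of the receptor, was at 5.06, 3.61 and 5.26 TPM in normal livers, 19.2, 26.5 and 19.4 in the Empty livers and 14.1, 17.6 and 8.02 in the UTOpiA livers. It was called higher in the Empty group (log2 fold change 1.71, adjusted p = 0.000416), with no overlap between ACLF and normal livers.

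STAT3 target genes were higher in the Empty group as well. Of 22 listed, 20 were tested, 15 were called higher than in normal livers and 0 lower, against 20.7% and 11.1% of all genes, with a median log2 fold change of 2.49; without Empty 2, 14 were called higher, and Icam1 lost the call (adjusted p = 0.0878, edgeR). Fos, among the 15, held 6 counts or fewer in each normal library. It entered the test through the ACLF livers, so its call adds nothing to that count. The 5 not called were Crp, Hamp, Cebpb, Myc and Bcl2l1. In UTOpiA against normal livers 13 were called higher and 1 lower, against 18.2% and 6.81% of all genes. The one called lower was Hamp, which encodes the iron regulator hepcidin, at -1.58 (adjusted p = 0.0257, edgeR). In UTOpiA against Empty livers none was called by edgeR, and the median was -0.32. At an unadjusted p under 0.05 there were 5, against 1456 of all 14089 genes. DESeq2 called Lcn2 higher and Il1rn and Cebpd lower there, where it called 0.376% of all genes higher and 0.504% lower.

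In Empty 2 the targets ranked differently by kind. Of 10 targets that are not plasma proteins, such as Junb and Fos, 9 were highest of all 9 libraries in Empty 2, against 17.55% of all genes. Of 10 plasma protein targets, 0 were highest of all libraries there. Within the Empty group 6 were lowest in Empty 2, against 36.85% of all genes, and 2 (Crp and Lcn2) were highest in it, against 36.28%. The difference between the 2 kinds was not tested. Fos, an immediate early transcription factor gene, had 0.16, 0.44 and 0.29 TPM in normal livers, 1.64, 127 and 2.95 in the Empty livers and 2.25, 3.00 and 0.61 in the UTOpiA livers. A2m, the acute-phase alpha-2-macroglobulin of the rat, had 1.56, 1.75 and 2.44 TPM in normal livers, 219, 6.20 and 186 in the Empty livers and 26.3, 82.0 and 217 in the UTOpiA livers. The liver with the highest Il6, Socs3 and Stat3 thus had the lowest A2m of the 6 ACLF livers.

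**Figure D4:**
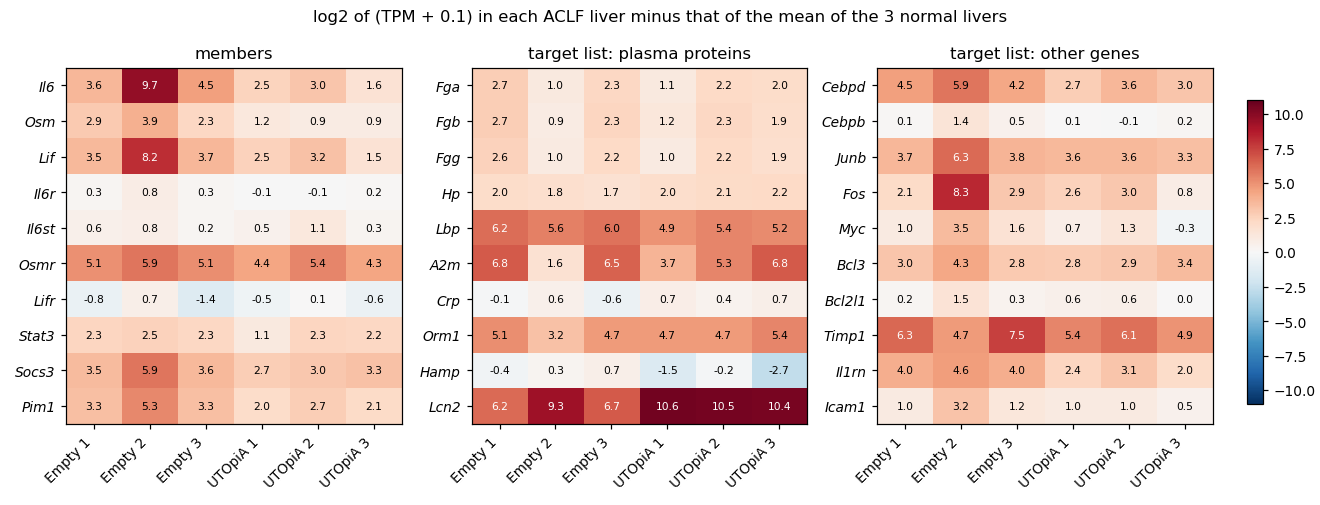
Log2 of (TPM + 0.1) in each ACLF liver minus that of the mean of the 3 normal livers, for the members and for 2 lists of STAT3 target genes. In Empty 2 the median is 4.57 over the members and 4.43 over the other targets, but 1.34 over the plasma protein targets, against 2.74 and 2.32 in Empty 1 and Empty 3.

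The other targets of the named set were called higher in the Empty group by edgeR, with log2 fold changes of 7.62 for Lcn2, 6.65 for Fos, 6.05 for Timp1, 5.64 for A2m, 5.41 for Lbp and 4.62 for Junb, and adjusted p of at most 0.0181. Without Empty 2 the log2 fold changes were 2.35 for Fos and 3.21 for Junb, and from 5.56 to 6.49 for the other 4, all still called. Fos lost the call when any 1 normal library was left out (adjusted p from 0.0549 to 0.0592). Lcn2, the siderophore-binding lipocalin, had 2.95, 5.03 and 3.53 TPM in normal livers, 290.5, 2523 and 417 in the Empty livers and 6310, 5694 and 5359 in the UTOpiA livers. Every UTOpiA liver was above every Empty liver for Lcn2, opposite to the ligands, with a log2 fold change of 2.63 (adjusted p = 0.349, edgeR). Without Empty 2 this became 4.28 and was called higher (adjusted p = 0.00484), and Il1rn, the interleukin-1 receptor antagonist, was called lower (-1.31, adjusted p = 0.0455), where 0.181% of genes were called higher and 0.153% lower. Il1rn was also called lower without UTOpiA 2 (-1.71, adjusted p = 0.0376). Lbp, the LPS-binding protein, had 29.9, 16.6 and 27.9 TPM in normal livers, 1813, 1173 and 1554 in the Empty livers and 766, 1031 and 892 in the UTOpiA livers.

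The genes nearest in pattern to Il6 over the 9 livers, by the root mean square difference of centred log2(TPM + 1), were Fos at 0.348, Lif at 0.422 and Ptgs2 at 0.446. Ptgs2, the inducible cyclooxygenase, had 1.15, 36.2 and 1.27 TPM in the Empty livers. Those nearest to Socs3 were Junb at 0.541 and the alpha globins Hba-a1 at 0.552 and Hba-a2 at 0.555. All of these were highest in Empty 2.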

How the data were processed

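RNA-seq was measured in 9 livers, grouped by their labels into Normal, Empty and UTOpiA, 3 each; the labels call them biological replicates. The authors deposited raw read counts per gene and TPM, which sum to 1000000 per library. Per the labels' processing notes the tools were Trimmomatic, HISAT2 and featureCounts on rn6. The study's methods name Cutadapt and the mouse build GRCm38 in their place, and the 2 sources also name different library kits. Both kits keep strand, but whether counting used it is not given in the sources used here.

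Counts were fitted with edgeR 4.0.16 in R 4.3.3 (filterByExpr, TMM, all 9 libraries, one mean per group, robust quasi-likelihood test, two-sided), which was tested on simulated data. DESeq2 1.42.0, limma 3.58.1 on log2(TPM + 1 or 0.1), other filters and left-out libraries were the alternatives. TPM ratios were compared by exact permutation tests. No pair of libraries was a copy of another. Depth limits values near 3 counts, and intervals cover counting error only.

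The members and lists were chosen with earlier results of these data known. The text names all members, the called genes of each list with up to 6 largest changes per direction (1 of these is not reported here), and the 3 genes nearest in pattern to Il6 and to Socs3 with a mean of at least 1 TPM. Others (Crp, Hamp, Cebpb, Myc, Bcl2l1, Il1rn, Cebpd, Socs2, Cish and Il11) were named after their values were seen. The same holds for the single cell type markers named.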

Additional observations from a re-analysis of the deposited data

How the results depend on the processing

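Depth limits Il6, Osm and Lif, which held 20 counts or fewer in every normal and UTOpiA library. Of 104 recomputed counts of members called, 97 stayed within 1.5 times the main count. With at least 10 counts in every library, 4 of 7 members tested were called higher in Empty against Normal, since Il6, Osm and Lif were not tested, against 14.5% of all genes at that setting. Leaving out 1 library gave 6 to 7 higher and 0 to 1 lower there (Lifr, without Empty 2; also 1 by DESeq2, an alternative chosen after seeing the data), and 2 to 4 higher in UTOpiA against Normal. With 1 library left out, edgeR called 18.3% to 20.4% of all genes higher and 9.35% to 12.3% lower in Empty against Normal. In UTOpiA against Normal it called 14.6% to 18.2% higher. In UTOpiA against Empty, DESeq2 called 1 member lower (Pim1), and 1 without UTOpiA 2 (Pim1, -1.91, adjusted p = 0.0330, where 2.4% of genes were called lower). All 81 recomputed ratio differences moved by less than 1 SD. Of 491 recomputed fold changes, 20 changed sign, all of members not called in that comparison; the cause was not tested. Il6r in Empty against Normal became 0.048 with 10 counts in every library, 0.43 by limma on log2(TPM + 1), 0.44 with 0.1 added and 0.43 with no filter, and 0.016, 0.017 and 0.016 with these limma settings in UTOpiA against Normal. DESeq2 without Empty 2 gave Il6st -0.092 in Empty against Normal, and without UTOpiA 2 gave Lifr -0.040 in UTOpiA against Empty. With 1 library left out, the folds that changed sign ranged from -0.275 to 0.083 for Il6r and from -0.110 to 0.198 for Il6st in Empty against Normal, and from -0.470 to 0.012 for Il6r, from -0.307 to 0.893 for Lifr and from -0.512 to 0.140 for Stat3 in UTOpiA against Empty. Replicate numbers did not pair the livers, since 0 of 9 same-numbered pairs correlated over 0.1 (r from -0.172 to 0.058). With the replicate block 7 and 4 members were called higher, as without it, against 19.5% and 16.6% of all genes. In UTOpiA against Normal, however, Lif gained the call with the block (5.12, adjusted p = 0.0412) and Socs3 lost it (2.84, adjusted p = 0.0546). Il6 lost its call in Empty against Normal with no filter on counts (adjusted p = 0.101) and with only the 6 libraries compared (adjusted p = 0.0961), and by limma on log2(TPM + 1) with no filter both Il6 and Lif lost it (adjusted p = 0.0767 and 0.0676). DESeq2 gave Il6 and Lif no adjusted p there and called 5 members higher, against 21.6% of all genes.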

Other observations

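Socs2 and Cish, inhibitors of the same family as Socs3, are named here after their values were seen. Socs2, which restrains growth hormone signalling, had 20.7, 9.11 and 7.68 TPM in normal livers, 8.68, 55.4 and 11.5 in the Empty livers and 102, 44.1 and 46.8 in the UTOpiA livers. Empty 1 and Empty 3 lay below every UTOpiA liver, and Empty 2 lay among them. The log2 fold change of UTOpiA against Empty livers was 1.55 ± 0.73 (SE, adjusted p = 0.507, edgeR). Empty 2 held 72.4% of the Empty counts of Socs2, and the fold change without that library is not given here. Cish had 27.4, 8.83 and 3.00 TPM in normal livers, 2.31, 35.9 and 3.89 in the Empty livers and 18.2, 12.1 and 10.4 in the UTOpiA livers. Its log2 fold change in Empty against normal livers was -0.40 ± 1.03 (adjusted p = 0.770, edgeR), and without Empty 2 it was -2.62 and called lower (adjusted p = 0.0365).

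Il11, a ligand of the family that did not pass the filter on counts, held 0 counts in each normal library, 17, 0 and 18 in the Empty livers and 7, 1 and 2 in the UTOpiA livers. Here Empty 2 was the Empty liver without a count, where it had the most of Il6 and Lif.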
